A study of Mus musculus with 12 samples.

Results

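The genes described here encode the proteasome, its activators and its assembly factors in mouse peritoneal macrophages. Of the 16920 genes in the deposited tables, 50 had a symbol that starts with Psm followed by a letter from a to g and a digit. The immunoproteasome genes Psmb8, Psmb9 and Psmb10 were set aside, which left 47 members chosen by name. They comprised 16 core genes (Psma and Psmb), 20 cap genes (Psmc and Psmd), 5 activator genes (Psme), the inhibitor gene Psmf1, 4 chaperone genes of core assembly (Psmg) and Psmc3ip, a meiotic recombination factor that carries the prefix by name alone. All 47 passed the filter on low counts, which left 12064 genes for testing.

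The proteasome is the large protease that degrades proteins marked with ubiquitin. Its barrel-shaped core holds the proteolytic sites inside, the alpha (Psma) rings close the barrel at each end, and the beta (Psmb) rings carry the active sites. The regulatory cap recognises ubiquitin, removes it and unfolds the substrate with a ring of ATPases (Psmc) held by non-ATPase subunits (Psmd). Psme proteins bind the same ends of the core as the cap and open it without ubiquitin, and immune cells are known to raise some of them, together with the immunoproteasome subunits, when antigen presentation is induced.

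RNA sequencing covered 12 libraries, 3 in each of 4 groups. Wild-type (WT) C57BL/6 mice and mice labelled Ythdf1 knockout (KO), in which the gene had been edited in the whole animal by CRISPR/Cas9, gave the macrophages. Cells drawn into the peritoneum by an injected irritant were collected, cultured overnight and then given PBS or 1 µg/mL lipopolysaccharide (LPS) for 6 h. The 4 groups were thus WT with PBS, WT with LPS, KO with PBS and KO with LPS, and the submitters describe the samples of a group as biological replicates.

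Total counts lay between 21546274 and 22017005 per library, and the 47 members held 0.383% to 0.471% of them. WT LPS replicate 1 stood apart from the other libraries of its group, with a mean chi-square per gene of 31.6 and 24.6 against replicates 2 and 3, which differed from each other by 3.02. In KO with LPS replicates 2 and 3 differed by 16.0, and replicate 1 differed from them by 7.14 and 5.64. Pairs of PBS libraries differed by 2.75 to 4.63. Ythdf1, the gene named in the label, was not lower in the KO-labelled libraries. It stood at 43.5 ± 1.54 CPM (SD, n = 3) in WT with PBS and 57.2 ± 1.53 CPM in KO with PBS, and at 201 ± 9.37 and 198 ± 6.94 CPM with LPS. Counts per gene do not show a small deletion, so the genotype comparisons rest on the labels. All 8 macrophage marker genes were detected, with summed levels of 17170 to 19943 CPM in every library, and marker lists of other cell types summed to at most 132 CPM. CPM denotes the count normalised to library size as edgeR reports it, after TMM scaling (the trimmed mean of M values), and 3 counts, the floor of detection used here, equal 0.105 to 0.187 CPM.

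To see how abundant the members were before LPS, levels were divided by transcript length (CPM per kb). In WT with PBS the median level of 14 core genes was 57.7 CPM per kb, that of the 20 cap genes 38.2, that of Psme1 to Psme4 59.6 and that of the 4 chaperone genes 7.01. Core levels per length spread from 22.1 for Psma2, an alpha subunit, to 226 for Psmb6, the beta subunit of the caspase-like site. Cap levels spread more widely, from 5.91 CPM per kb for Psmd5 to 355 for Psmd8, a subunit of the cap's lid. Both genes kept these places in all 4 groups, and so did Psma2 and Psmb6 among the core genes. Psma8, a core subunit of the testis, and Psmb11, a catalytic subunit of the thymus, are left out of these medians and had at most 1.47 and 1.31 CPM in any library.

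The first question was whether LPS moved the proteasome genes together. In WT, 36 of 47 members (76.6%) rose and 4 fell with LPS, where 36.5% of all genes tested rose and 40.2% fell. In KO, 38 members (80.9%) rose and 3 fell, against a background of 38.8% and 41.1%. The median log2 fold change of the members was 0.48 in WT and 0.77 in KO, beside -0.05 and -0.04 over all genes. There were 35 members called higher in both. The 4 members that fell in WT became 2 without WT PBS replicate 3, without WT LPS replicate 1 or without WT LPS replicate 2, and 36 were higher without WT LPS replicate 1. Fibroblast markers summed to 75.1 to 88.6 CPM with PBS and 118 to 132 CPM with LPS in WT and to 32.9 to 46.2 and 57.0 to 69.5 CPM in KO. T cell markers went from at most 0.679 CPM to 8.62 to 13.2 CPM in WT and from at most 0.735 CPM to 3.98 to 4.59 CPM in KO, and neutrophil markers from 4.003 to 5.26 CPM to 7.87 to 10.2 CPM in WT and from 4.95 to 5.63 CPM to 8.40 to 16.0 CPM in KO. Only 2 of the 5 T cell markers and 1 of the 5 neutrophil markers listed passed the filter on low counts. In WT with LPS the T cell markers Cd3d and Cd3g had no counts after rounding, nor did the neutrophil markers S100a9, Mpo and Elane. In KO with LPS all 5 T cell markers had counts, and of the neutrophil markers Mpo had none. Skeletal muscle genes went from 17.2 to 22.6 CPM to 28.7 to 33.6 CPM in WT and from 0.319 to 19.6 CPM to 0.428 to 0.684 CPM in KO, and mast cell markers from 0.644 to 0.904 CPM to 1.02 to 1.37 CPM in WT and from 0.175 to 0.456 CPM to 2.82 to 3.44 CPM in KO. The mast cell sum in KO with LPS was Kit alone, since Cpa3, Mcpt4 and Tpsb2 had no counts after rounding there. In WT with LPS Cpa3 and Mcpt4 had none. Summed B cell markers, at most 1.92 CPM, were lower with LPS in both genotypes. Their part in the LPS differences was not tested. In bulk RNA, fewer cells of a type and less RNA per cell cannot be told apart.

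How many members rose depended on how the libraries were scaled. Upper-quartile scaling moved the median of all genes by -0.31 in WT and -0.36 in KO, and scaling by library totals alone moved it by -0.66 and -0.80. The split of members between higher and lower then became 24 and 9 in WT and 28 and 9 in KO with the upper quartile, and 15 and 24 in WT and 16 and 20 in KO with totals alone. Of all genes 26.1% in WT and 27.7% in KO were then higher with the upper quartile, and 18.4% and 18.3% with totals alone. The shares of all genes called lower were 54.0% and 54.4% with the upper quartile and 68.4% and 69.5% with totals alone. Those of the members called lower were smaller, 19.1% in each genotype with the upper quartile and 51.1% and 42.6% with totals alone. A change of scaling moves all genes of a comparison together and so leaves their distance from each other nearly as it was. The median of the members lay above that of all genes by 0.53 in WT and 0.81 in KO, with 41 and 42 of the 47 on its upper side.

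**Figure D1:**
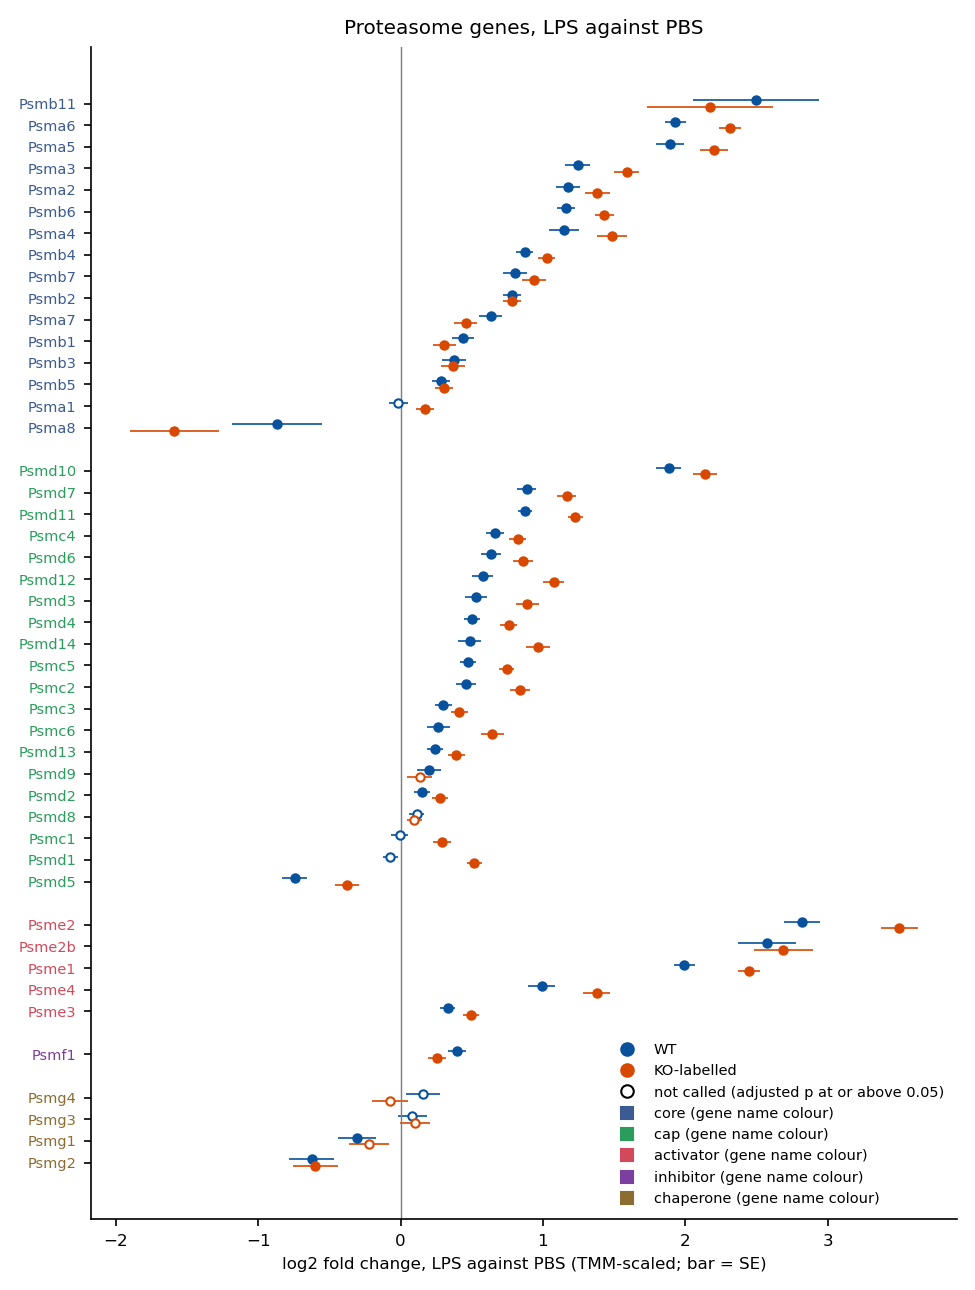
Log2 fold changes of LPS against PBS (horizontal axis, bars are SE) for 46 members (Psmc3ip left out) in WT (blue) and KO-labelled libraries (orange), grouped by class, with open points for genes that missed the threshold. Activator genes reach 2.82 in WT and 3.50 in KO and most core genes lie above most cap genes with TMM scaling, while with totals alone the cap medians were -0.20 in WT and -0.05 in KO.

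The activators had the widest rise. All 5 Psme genes were higher with LPS in both genotypes, with a median log2 fold change of 1.99 in WT and 2.45 in KO. Their summed level rose from 306 ± 6.65 to 1040 ± 93.0 CPM in WT and from 276 ± 7.69 to 1282 ± 75.3 CPM in KO. Psme3 alone of the 5 turned negative with totals alone, and the other 4 kept their call with every scaling and with each library left out.

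Psme1 and Psme2 encode the alpha and beta subunits of PA28, the interferon-inducible activator ring. Psme1 (chr14:55578494-55581527, GRCm38) stood at 70.9, 73.3 and 69.9 CPM in WT with PBS and at 253, 295 and 305 CPM with LPS. In KO it stood at 55.9, 61.2 and 64.4 CPM with PBS and at 329, 347 and 314 CPM with LPS. The PBS and LPS libraries were far apart in both genotypes, and the KO libraries lay below those of WT with PBS and above them with LPS. Psme1 rose 3.98-fold in WT (log2 fold change 1.99, SE 0.075, adjusted p = 1.72e-13) and by 2.45 on the log2 scale in KO (SE 0.0763, adjusted p = 1.17e-14).

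Psme2 (chr14:55587440-55591101), its neighbour on the same chromosome, was listed at 62.4, 75 and 71.2 CPM in WT with PBS and at 400, 528 and 544 CPM with LPS. In KO the values were 53.1, 56.5 and 61.4 CPM with PBS and 650, 722.5 and 568 CPM with LPS. With LPS each KO library exceeded each WT library. Psme2 rose by 2.82 on the log2 scale in WT (SE 0.124, adjusted p = 3.17e-11) and by 3.50 in KO (SE 0.128, adjusted p = 2.87e-12). Psme2b, a near copy of Psme2 on chromosome 11, rose from 3.96 to 23.6 CPM in WT and from 3.74 to 24.2 CPM in KO. Both genes had counts with decimals in all 12 libraries, so the division of reads between them is uncertain, and Psme2b overlaps 9930111J21Rik1 on the same strand. With the counts of both added together, Psme2 rose by 2.81 in WT and 3.47 in KO.

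The other activators act mainly in the nucleus. Psme4, which encodes the large activator PA200, stood at 53.8, 51.5 and 56.6 CPM in WT with PBS and at 118, 108 and 96.1 CPM with LPS. Its KO levels were 57.0, 48.2 and 56.3 CPM with PBS and 142.5, 123 and 155 CPM with LPS. Groups with and without LPS did not overlap, with log2 fold changes of 0.99 in WT (SE 0.0934, adjusted p = 4.91e-08) and 1.38 in KO (SE 0.0936, adjusted p = 5.63e-10). Psme3, the nuclear PA28 gamma subunit, moved least of the 5, from 107 to 134 CPM in WT (log2 fold change 0.33, adjusted p = 2.69e-05) and from 100.4 to 141 CPM in KO (0.49, adjusted p = 2.22e-07), but with totals alone it was -0.33 and -0.31, and with the upper quartile its WT call was lost (0.0203).

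Among the core genes, 14 of 16 rose and 1 fell in WT, and 15 rose and 1 fell in KO, with medians of 0.84 and 0.98 that stayed above 0 with every scaling (0.18 in both with totals alone). Not all of the barrel moved alike. Psma6 and Psma5, both subunits of the alpha rings, rose most among the core genes above the floor, while Psma1, another alpha subunit, had 63.0 CPM with PBS and 62.3 CPM with LPS in WT and did not pass there with TMM scaling, but was -0.32 with the upper quartile and -0.68 with totals alone, both called lower. Psma6 (chr12:55384222-55418459) stood at 57.7, 62.8 and 60.3 CPM in WT with PBS and at 206, 245 and 238 CPM with LPS. In KO it went from 61.3, 59.7 and 56.5 CPM to 295, 314 and 274 CPM. All LPS libraries lay above all PBS libraries, and all KO LPS libraries above all WT LPS libraries. The log2 fold change of Psma6 was 1.93 in WT (SE 0.0742, adjusted p = 2.31e-13) and 2.31 in KO (SE 0.0749, adjusted p = 1.95e-14), and that of Psma5 1.89 (SE 0.0986) and 2.20 (SE 0.0994).

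The 3 catalytic subunits of the constitutive core rose by different amounts. Psmb6 (chr11:70525324-70527858) stood at 179, 182 and 179.6 CPM in WT with PBS and at 374, 406 and 431 CPM with LPS. Its KO libraries stood at 159.9, 178 and 170.3 CPM with PBS and at 453, 487 and 430.1 CPM with LPS. LPS libraries lay far above PBS libraries in both genotypes, with log2 fold changes of 1.16 (SE 0.0652, adjusted p = 4.36e-11) and 1.43 (SE 0.0656, adjusted p = 2.26e-12). Psmb7, which carries the trypsin-like site, rose by 0.81 in WT (SE 0.0856) and 0.94 in KO (SE 0.0858), and lost both calls with totals alone (0.14 in each). Psmb5, which carries the chymotrypsin-like site, moved least. It stood at 69.6, 73.6 and 69.7 CPM in WT with PBS and at 82.6, 86.7 and 90.1 CPM with LPS. The Psmb5 groups did not overlap and the log2 fold change was 0.29 in WT (SE 0.0625, adjusted p = 0.000557) and 0.31 in KO (adjusted p = 0.000277), but it was -0.02 and -0.05 with the upper quartile and -0.38 and -0.49 with totals alone. Psmb7 overlaps Nek6 on the opposite strand, and counting by strand is not given in the sources used here. Other members that overlap a gene on the opposite strand are Psme1 (Emc9), Psma4 (AY074887), Psma5 (1700010K24Rik), Psmc3, Psmd3, Psmd13 and Psmc3ip. On the same strand Psmb5 overlaps Mir686 and Psmg3 overlaps Gm26938. Psma3, Psma4 and Psmd9 had counts with decimals in all 12 libraries.

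Both tissue-restricted core genes were close to the floor. Psmb11 had 0.107 to 0.181 CPM in WT with PBS and 0.520 to 1.31 CPM with LPS, and carried decimal counts in all 12 libraries. Its fitted log2 fold changes were 2.50 in WT and 2.17 in KO. Psma8, the core gene that fell, went from 0.68 to 0.929 CPM in WT with PBS to 0.347 to 0.564 CPM with LPS (log2 fold change -0.87, SE 0.316, adjusted p = 0.0201) and lost its call without WT PBS replicate 3, WT LPS replicate 1 or WT LPS replicate 2, where the adjusted p reached 0.083, and with DESeq2 (adjusted p = 0.0634). In KO it fell by 1.59 (SE 0.310, adjusted p = 0.000178).

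The regulatory cap rose less. With TMM scaling 16 of 20 cap genes rose and 1 fell in WT, and 17 rose and 1 fell in KO, with medians of 0.47 and 0.75, whereas with totals alone these medians were -0.20 and -0.05. Of the 6 ATPase genes, 5 rose in WT and 6 in KO, from 74.3 to 118 CPM for Psmc4 in WT, while Psmc1 had 79.2 and 78.8 CPM there and was called lower in WT with the upper quartile and with totals alone. Psmd10 led the non-ATPase genes, followed by Psmd7 and Psmd11. Psmd10 (chrX:140948425-140956711) encodes gankyrin, which chaperones cap assembly and is absent from the finished particle. It stood at 13.7, 14.4 and 14.1 CPM in WT with PBS and at 45.3, 55.6 and 54.5 CPM with LPS. In KO its levels were 14.5, 16.3 and 15.1 CPM with PBS and 68.2, 71.6 and 62.4 CPM with LPS. The groups were well apart, and Psmd10 rose by 1.88 on the log2 scale in WT (SE 0.0853, adjusted p = 2.25e-12) and 2.14 in KO (SE 0.0843, adjusted p = 2.86e-13), with its call kept at every scaling.

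Psmd5, another cap assembly chaperone, moved the opposite way. It stood at 27.6, 26.1 and 24.3 CPM in WT with PBS and at 14.8, 15.3 and 16.4 CPM with LPS. In KO it stood at 23.9, 28.4 and 25.6 CPM with PBS and at 18.0, 21.2 and 20.8 CPM with LPS. LPS libraries lay below PBS libraries in both genotypes, with log2 fold changes of -0.74 (SE 0.0871, adjusted p = 6.83e-07) and -0.38 (SE 0.0852, adjusted p = 0.000669). Psmd9, the third cap chaperone of this class, stood at 16.5 to 23.5 CPM over all 12 libraries, and its call in WT (18.6 to 21.4 CPM) was lost without any one of 6 libraries and was -0.46 with totals alone. Psmd14, the deubiquitinase of the lid, rose from 43.7, 44.5 and 41.7 CPM to 51.9, 66.0 and 63.8 CPM in WT (log2 fold change 0.48, SE 0.083, adjusted p = 5.29e-05) and from 41.1, 40.0 and 39.6 CPM to 84.3, 80.1 and 71.5 CPM in KO (0.96, SE 0.0829, adjusted p = 1.17e-08). The WT call was lost with the upper quartile, and with totals alone both calls were lost, with -0.18 in WT and 0.16 in KO. Psmd7 and Psmd11, also of the lid, rose by 0.89 and 0.87 in WT and by 1.17 and 1.23 in KO. Psmd8, the most abundant cap gene per length, went from 542 to 586 CPM in WT and from 481 to 515 CPM in KO, and neither difference passed edgeR's test with TMM scaling over all 12 libraries, though that in WT did when replicate 1 of WT with LPS or replicate 2 of KO with LPS was left out. Both were called higher by DESeq2 and with RLE scaling (median ratios, the scaling of DESeq2), and lower with the upper quartile (-0.20 and -0.26) and with totals alone (-0.55 and -0.70).

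Psmf1, the gene of the inhibitor PI31, stood at 29.7, 29.9 and 30.6 CPM in WT with PBS and at 42.3, 37.8 and 38.8 CPM with LPS. It rose by 0.40 on the log2 scale in WT (SE 0.0606, adjusted p = 1.57e-05) and by 0.25 in KO (SE 0.062, adjusted p = 0.00129), but was -0.27 and -0.55 with totals alone, and with the upper quartile both calls were lost (0.085 in WT and -0.10 in KO). Of the 4 core-assembly chaperone genes 0 rose in either genotype, by edgeR, by DESeq2 or at an unadjusted p under 0.05. Psmg2 fell by 0.62 in WT (SE 0.158, adjusted p = 0.00187) and by 0.60 in KO (SE 0.159, adjusted p = 0.00258). Its levels were 7.81, 7.41 and 8.18 CPM in WT with PBS and 4.57, 6.43 and 4.17 CPM with LPS. Psmg1 fell by 0.31 in WT (adjusted p = 0.0446) and was -0.22 in KO (adjusted p = 0.15), where it was called lower with the upper quartile (-0.58), with totals alone (-1.02) and without KO PBS replicate 3 or KO LPS replicate 2. Its WT call was lost without any one of 6 libraries, each of the WT PBS replicates among them, and also with RLE scaling and by DESeq2 (-0.26 in each). Psmc3ip, with 0.347 to 1.22 CPM, did not pass in any comparison with TMM scaling over all 12 libraries, but was called in fits without WT LPS replicate 1 or 3, without KO PBS replicate 3 or without KO LPS replicate 3, in the fit of the 2 PBS groups alone, and with totals alone in WT. Psmg3 and Psmg4 had 4.11 to 8.54 CPM in all libraries and did not pass with LPS in either genotype with TMM scaling, but both were called lower in KO with the upper quartile and in WT and KO with totals alone.

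Summed levels show the balance between these classes. The 16 core genes summed to 1001 ± 30.7 CPM in WT with PBS and 1989 ± 194 CPM with LPS, and to 969 ± 18.1 and 2212 ± 158 CPM in KO. Cap genes summed to 1797 ± 27.5 and 2246 ± 49.2 CPM in WT and to 1630 ± 20.1 and 2384 ± 67.2 CPM in KO. With totals alone the summed cap level moved by -0.34 on the log2 scale in WT and -0.25 in KO. Ratios of summed counts within a library do not depend on scaling. The cap to core ratio went from 1.80 ± 0.0395 to 1.14 ± 0.0916 in WT and from 1.68 ± 0.0502 to 1.08 ± 0.0536 in KO. The ratio of activators to core went from 0.305 ± 0.00603 to 0.523 ± 0.00484 in WT and from 0.284 ± 0.0119 to 0.580 ± 0.00781 in KO. Neither ratio overlapped between PBS and LPS libraries. These sums were given no test, since the members were chosen by name with earlier results known.

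**Figure D2:**
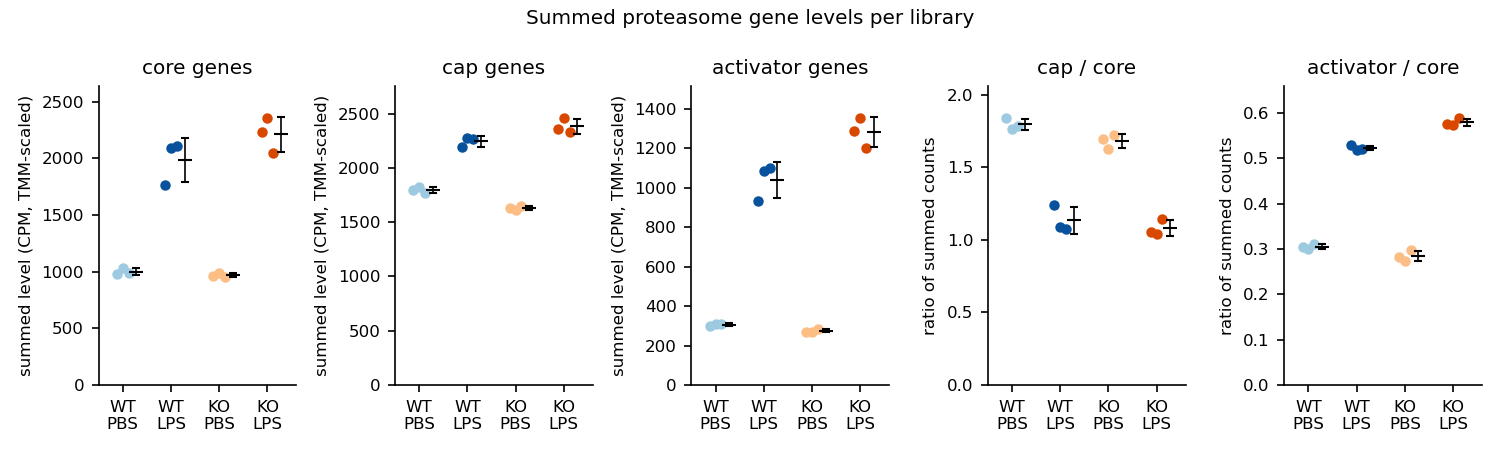
Summed levels of the core, cap and activator genes (vertical axes in TMM-scaled CPM) and ratios of their summed counts, with 1 point per library and bars for mean and SD of 3 libraries in each group. The cap to core ratio drops from 1.80 to 1.14 in WT and from 1.68 to 1.08 in KO, while the summed cap level, higher with LPS as plotted, is lower with LPS when library totals alone are used.

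Genes that work beside the proteasome were read from lists chosen for their roles. Of 9 partners of the cap and of assembly, 6 rose and 3 fell in WT and 6 rose and 1 fell in KO, where over all genes 36.5% rose and 40.2% fell in WT and 38.8% and 41.1% in KO. Pomp, which matures new cores, rose by 0.79 in WT and 0.82 in KO, and lost both calls with totals alone (0.13 and 0.017). The ubiquitin receptor Adrm1 rose by 0.56 and 0.88, with both calls lost for totals alone (-0.11 and 0.077), and the small lid subunit Sem1 by 0.43 and 0.45, with -0.24 and -0.35 for totals alone. Usp14, a deubiquitinase that docks on the cap, fell by 0.50 in WT (55.4 to 39.2 CPM, adjusted p = 2.8e-06) and had 48.1 and 49.4 CPM in KO. Of 12 genes of ubiquitin shuttling and the Vcp segregase, 8 rose and 2 fell in WT and 9 rose and 3 fell in KO. Of 7 regulators of proteasome genes, 4 rose and 3 fell in WT, the latter share (42.9%) close to that over all genes, and 4 rose and 1 fell in KO. Nfe2l1, the transcription factor that restores proteasome subunits after their loss, rose by 0.59 in WT and 0.80 in KO, but was -0.07 and -0.00432 with totals alone.

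The set-aside immunoproteasome genes share the core with Psmb5, Psmb6 and Psmb7, which they replace. Psmb8, Psmb9 and Psmb10 rose by 2.72, 3.25 and 3.36 on the log2 scale in WT and by 3.04, 3.44 and 3.62 in KO. Per transcript length, Psmb8 made up 25.8% ± 0.643 of the sum of Psmb5 and Psmb8 in WT with PBS and 65.2% ± 1.72 with LPS, and 26.2% ± 0.942 and 70.4% ± 0.176 in KO. The share of Psmb9 beside Psmb6 was smaller, 4.72% ± 0.172 and 17.4% ± 1.52 in WT and 4.75% ± 0.134 and 16.7% ± 1.01 in KO, and that of Psmb10 beside Psmb7 larger, 37.3% ± 1.77 and 77.7% ± 0.993 in WT and 36.7% ± 1.81 and 78.8% ± 0.405 in KO. Transcript shares are not shares of assembled particles, and Psmb9 overlaps Tap1 on the opposite strand.

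**Figure D3:**
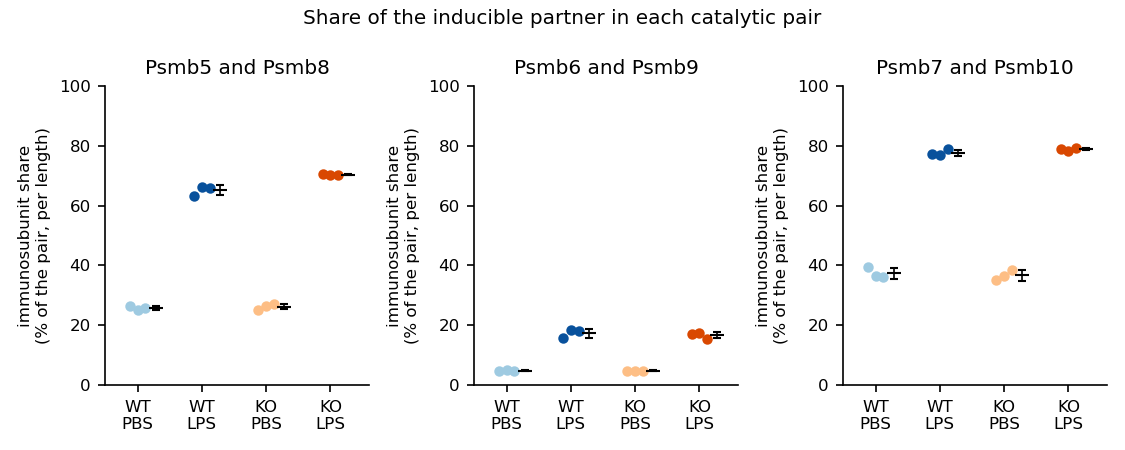
Share of the inducible subunit in each catalytic pair (vertical axis, percent of the pair's level per transcript length), with 1 point per library and bars for mean and SD of 3 libraries. With LPS the share of Psmb8 rises to 65.2% in WT and 70.4% in KO, that of Psmb10 to 77.7% and 78.8%, and that of Psmb9 to 17.4% and 16.7%.

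Promoter sequences from RefSeq (GRCm38.p6, 250 bases before to 50 after each start) matched 39 of the 47 members. They were searched on both strands for short motifs of factors linked to proteasome or inflammatory genes. TGACNNNGC, the core of the antioxidant response element that Nfe2l1 and Nfe2l2 bind, was found in 6 members (15.4%) and in 14% of all promoters. The interferon response motif, here GAAA followed by any 2 bases and GAAA again, was found in 5 (12.8%) against 3.99%, namely Psme1, Psmb3, Psmd4, Psmd9 and Psmg4. The STAT motif TTCNNNGAA was found in 5.13% against 9.55%, the NF-kappaB motif in 2.56% against 5.14% and CCAAT in 35.9% against 41.1%. Stretches of 30 bases are shown for 3 members with each of the first 2 motifs, among them Psme1, Psme4 and Psmb6 described above, with the match in capitals, read 5′ to 3′ along the gene's strand.
Psme1: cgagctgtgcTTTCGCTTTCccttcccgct
Psmb3: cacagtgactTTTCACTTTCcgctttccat
Psmd4: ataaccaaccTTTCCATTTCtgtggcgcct
Psmb6: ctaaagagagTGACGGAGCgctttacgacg
Psmb5: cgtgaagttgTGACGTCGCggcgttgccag
Psme4: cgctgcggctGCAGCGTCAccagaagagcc

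The first 3 matches are the interferon response motif read on the other strand, at chr14:55578493-55578522 (plus strand), chr11:97703261-97703290 (plus) and chr3:95042675-95042704 (minus). The next 2 hold TGACNNNGC as written, at chr11:70525338-70525367 (plus) and chr14:54618023-54618052 (minus), and Psme4 holds it on the other strand at chr11:30771758-30771787 (plus). Members with the same motif moved by different amounts, since with LPS in WT, among those with TGACNNNGC, Psmb6 rose by 1.16 and Psmb5 by 0.29. Among those with the interferon response motif Psme1 rose by 1.99, while Psmg4 did not pass with TMM scaling and was -0.50 with totals alone. A match describes letters in the window and not binding.

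Genotype labels were then compared without LPS. In KO with PBS no member was higher than in WT by edgeR or by DESeq2 (1 at an unadjusted p under 0.05), and 8 of 47 were lower (17.0%), against 12.3% higher and 13.0% lower over all genes. The 8 were Psme1 and the cap genes Psmc1, Psmc5, Psmd1, Psmd3, Psmd8, Psmd12 and Psmd13. Psmd3, a lid scaffold subunit, stood at 87.3, 79.3 and 81.2 CPM in WT and at 65.0, 68.3 and 69.5 CPM in KO, which did not overlap (log2 fold change -0.29, SE 0.0785, adjusted p = 0.0133). Psme1 was lower by 0.24 (SE 0.0741, adjusted p = 0.0274), Psmd12 by 0.22 (adjusted p = 0.0378) and Psmc1 by 0.20 (adjusted p = 0.0238). No core gene passed by edgeR or DESeq2, and 1 did at an unadjusted p under 0.05. None of the 8 calls held in every fit that left out 1 library, and all 8 were lost without WT PBS replicate 1 and again without KO PBS replicate 1. Leaving out replicate 2 or 3 of WT with PBS kept 2 or 4 of the 8, and leaving out replicate 2 or 3 of KO with PBS kept 1 or 2. With totals alone 1 was called, Psmd3. Fibroblast marker genes summed to 75.1 to 88.6 CPM in WT with PBS and 32.9 to 46.2 CPM in KO, and skeletal muscle genes to 17.2 to 22.6 and 0.319 to 19.6 CPM. Mesothelial markers summed to 6.37 to 6.97 CPM in WT and 3.26 to 4.28 CPM in KO, and mast cell markers to 0.644 to 0.904 and 0.175 to 0.456 CPM. The part of these markers in the differences was not tested.

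With LPS, 20 of 47 members (42.6%) were higher in KO than in WT and 2 were lower, where 22.1% of all genes were higher and 19.3% lower. Those higher were 11 of 20 cap genes, 6 of 16 core genes and 3 of 5 activators. The count of members higher was 14 without WT LPS replicate 1, 11 without KO LPS replicate 2, 12 without KO LPS replicate 1, 13 without WT PBS replicate 1 or without KO PBS replicate 2, 10 in a fit of these 2 groups alone, 9 with the upper quartile and 8 with totals alone. Beside all genes some of these shares were close, 19.1% of the members against 17.2% with the upper quartile and 17.0% against 15.9% with totals alone. In the fit of 2 groups it was 21.3% against 16.5%, and without KO LPS replicate 2 23.4% against 21.0%. Without KO LPS replicate 1 it was 25.5% against 18.7%, and without WT LPS replicate 1 29.8% against 22.9%. Without WT PBS replicate 1 or KO PBS replicate 2 it was 27.7% against 20.7% or 20.6%. By contrast it was 44.7% against 19.5% without WT LPS replicate 3. The 2 lower became 5 without WT LPS replicate 1 (10.6%, against 18.7% of all genes) and 4 without KO LPS replicate 2 (8.51%, against 17.8%). Of the 22 calls, 10 held with every scaling and with each library left out, namely Psma6, Psmc6, Psmd1, Psmd10, Psmd11, Psmd14, Psmd5 and Psme4 higher and Psmd8 and Psmf1 lower. Fibroblast markers summed to 118 to 132 CPM in WT with LPS and 57.0 to 69.5 CPM in KO, T cell markers to 8.62 to 13.2 and 3.98 to 4.59 CPM, skeletal muscle genes to 28.7 to 33.6 and 0.428 to 0.684 CPM, and mast cell markers to 1.02 to 1.37 and 2.82 to 3.44 CPM. Mesothelial markers summed to 6.54 to 7.29 CPM in WT and 4.65 to 5.66 CPM in KO. Siglecf, the only eosinophil marker listed, had 1.97 to 2.37 and 0.933 to 1.60 CPM. The mast cell sum in KO was Kit alone, since Cpa3, Mcpt4 and Tpsb2 had no counts after rounding. In WT Cpa3 and Mcpt4 had none, nor did the T cell markers Cd3d and Cd3g. The part of these markers was not tested.

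Psmc6, an ATPase of the cap, showed the widest difference. It stood at 38.9, 48.3 and 42.8 CPM in WT with LPS and at 62.2, 63.6 and 59.0 CPM in KO with LPS. All KO libraries lay above all WT libraries (log2 fold change 0.51, SE 0.0791, adjusted p = 0.000101). Psmd1, the largest cap scaffold subunit, was at 125, 120.2 and 120.5 CPM in WT and at 165.5, 165 and 167 CPM in KO, a difference of 0.45 (SE 0.051, adjusted p = 5.25e-06). It overlaps the gene model Gm21972 on the same strand. Psme2 was higher in KO by 0.40 (adjusted p = 0.013), Psmd10, Psme4 and Psmd14 each by 0.38 (adjusted p from 0.00116 to 0.00329), Psma6 by 0.36, Psma4 by 0.31, Psma3 by 0.26, Psme1 by 0.21 (adjusted p = 0.0244) and Psmb6 by 0.18 (adjusted p = 0.0358). Without WT LPS replicate 1, Psma4 stood at 0.16, Psma3 at 0.15 and Psme1 at 0.14. Of the 12 fits that each left out 1 library, Psma3 and Psma4 missed the threshold in 6, Psme1 in 5, Psmb6 in 9 and Psme2 in 1.

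Psmd8 and Psmf1 went the other way. Psmd8 stood at 576, 599.7 and 583 CPM in WT with LPS and at 497, 542 and 505 CPM in KO, without overlap (log2 fold change -0.19, SE 0.0519, adjusted p = 0.00845). Psmf1 was at 42.3, 37.8 and 38.8 CPM in WT and at 31.4, 32.8 and 33.6 CPM in KO (-0.28, SE 0.0623, adjusted p = 0.0019). Beside the members, Usp14 was higher in KO with LPS by 0.34, and Psmb8 by 0.27 (adjusted p = 0.01), a call that was lost with the upper quartile (0.20), with totals alone (0.18) and in a fit of these 2 groups alone.

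**Figure D4:**
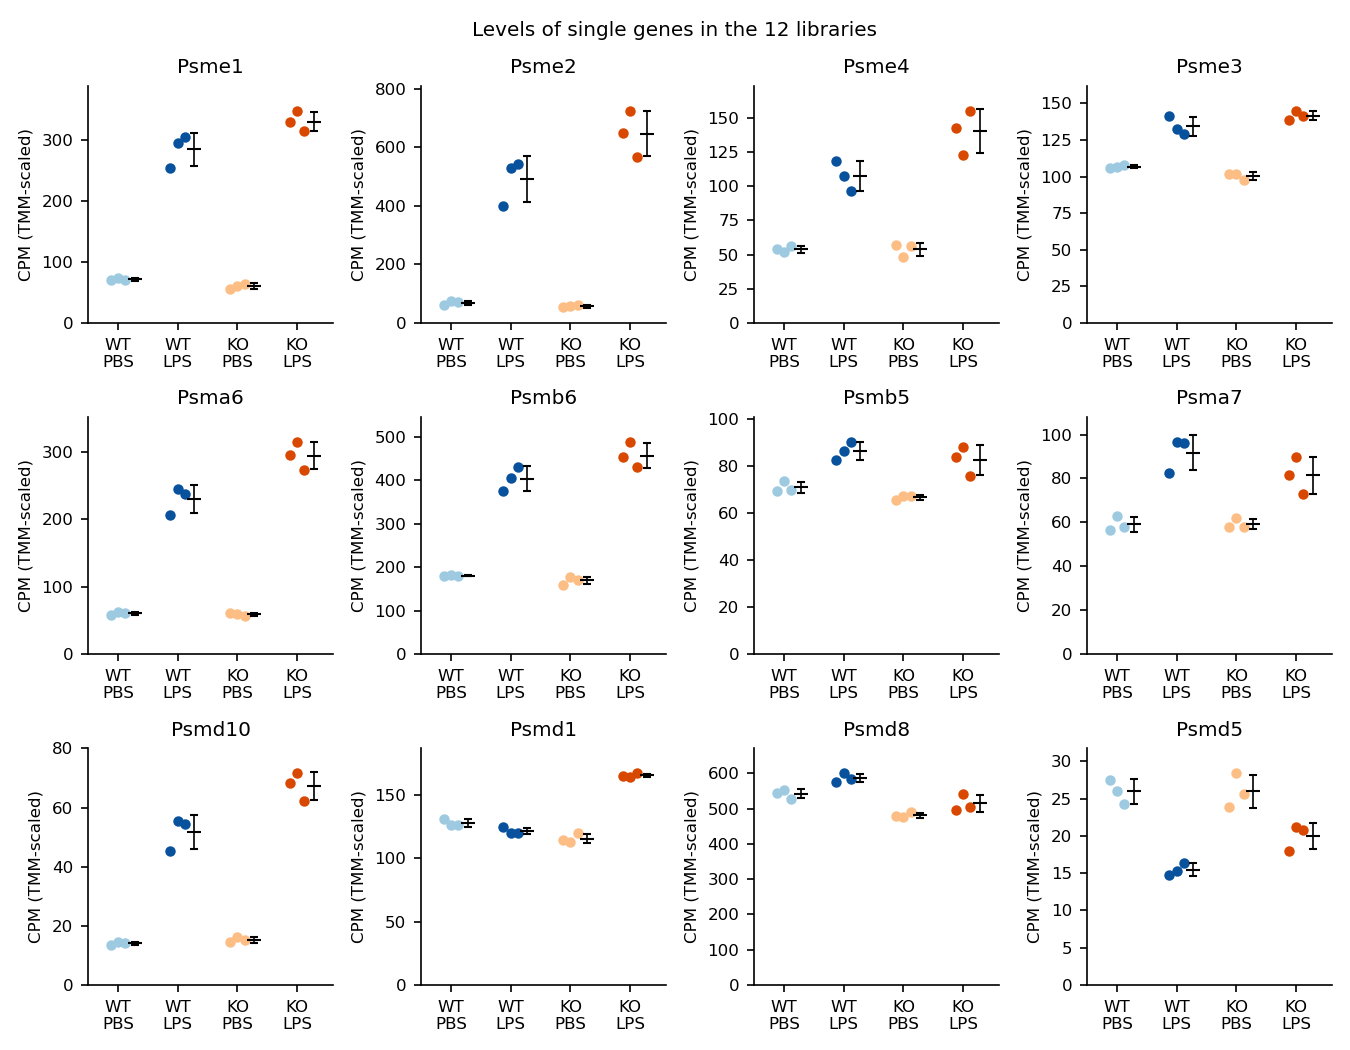
Levels of 12 members in the 12 libraries (vertical axes in TMM-scaled CPM, starting at 0), with 1 point per library and bars for mean and SD of 3 libraries in each group. Psmd1 is highest in KO with LPS, at 165 to 167 CPM, Psmd8 and Psmd5 do not follow the rise of Psme1, Psme2 and Psma6, and Psmb5 and Psme3, slightly higher with LPS as plotted, are lower with LPS when library totals alone are used.

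Whether LPS acted differently under the 2 labels was tested as an interaction. For 15 of 47 members (31.9%) the signed log2 fold change with LPS was higher in KO than in WT, where 9.78% of all genes passed in this direction. No member passed in the opposite direction by edgeR or DESeq2, nor at an unadjusted p under 0.05, where 8.26% of all genes did so after adjustment. The 15 were 12 of 20 cap genes, 2 of 5 activators and 1 of 16 core genes. The median interaction was 0.28 in the cap, 0.14 in the core and 0.39 in the activators, beside 0.01 over all genes. With the upper quartile 8 members passed (17.0%, against 7.73% of all genes), and with totals alone 4 passed with a positive interaction (8.51% against 5.20%) and 1, Psmf1, with a negative one, with a core median of 0.00596.

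Psmd1 had the clearest interaction. It did not pass the test with LPS in WT, at 131, 127 and 126 CPM with PBS and 125, 120.2 and 120.5 CPM with LPS (log2 fold change -0.07, SE 0.0507, adjusted p = 0.205), but was called lower there with the upper quartile (-0.38) and with totals alone (-0.74). In KO it rose from 115, 113 and 119.9 CPM to 165.5, 165 and 167 CPM (0.52, SE 0.0506, adjusted p = 6.22e-08), or -0.28 with totals alone. Its interaction was 0.59 (SE 0.0716, adjusted p = 3.93e-05). Among the members called Psme2 had the largest value, 0.69 (SE 0.166, adjusted p = 0.012), followed by Psmd1, Psmd12 with 0.50 (SE 0.102, adjusted p = 0.00304), Psmd14 with 0.48 (SE 0.117, adjusted p = 0.00979), Psme1 with 0.45 (SE 0.103, adjusted p = 0.00643) and Psma6 with 0.38 (SE 0.102, adjusted p = 0.0162). Psme4 (0.39, adjusted p = 0.0516) and Psmb6 (0.27, adjusted p = 0.0515) lay just past the threshold of 0.05. Both passed in a fit with the replicate number as a block, and each missed the threshold in 10 of the 12 fits that left out 1 library. Among the partners Usp14 had an interaction of 0.54 (adjusted p = 0.00084) and Adrm1 of 0.32 (adjusted p = 0.013), which was lost with totals alone (0.18) and when replicate 2 or 3 of KO with PBS, or replicate 1 of WT with PBS, was left out.

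**Figure D5:**
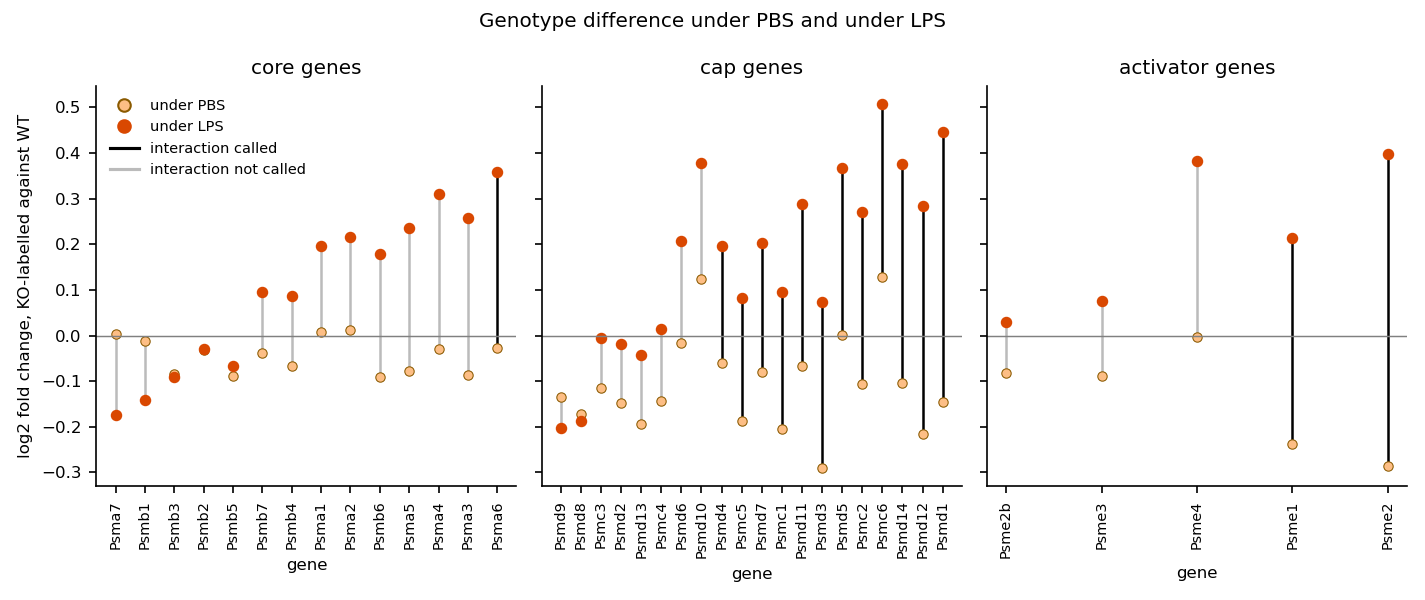
Log2 fold change of KO-labelled against WT libraries (vertical axis) under PBS (light points) and under LPS (dark points) for each core, cap and activator gene (Psma8 and Psmb11 left out), joined by a black line where the interaction passed the threshold. Black lines join 12 of 20 cap genes, 2 of 5 activators and 1 of the core genes, of which 4 in all held with every scaling.

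The number of members with an interaction was 6 without KO PBS replicate 3 (12.8%, against 6.80% of all genes in that direction). It was 7 without KO PBS replicate 1 or 2 (14.9%, against 6.66% or 5.93%) and 8 without WT PBS replicate 2 (17.0%, against 7.39%). Without WT PBS replicate 1 it was 9 (19.1%, against 6.40%), and without WT LPS replicate 1 it was 16 (34.0%, against 12.9%). Psmd1, Psmd11, Psmd12, Psmd14, Psme1 and Psme2 passed with each library left out, and Psmd1, Psmd11, Psmd12 and Psme2 also with every scaling.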

How the data were processed

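RNA of 12 libraries was sequenced on a BGISEQ-500 instrument. The authors deposited expected counts per gene (estimated counts with decimals, not scaled between libraries). The submitters' processing notes name Bowtie2, RSEM 1.3.1 and GRCm38.p6, whereas the study's methods name STAR and HTSeq. The series' design text names starch broth as the irritant and the methods name thioglycollate. Values were rounded and tested in R 4.3.3 with edgeR 4.0.16 (TMM scaling, filterByExpr, robust quasi-likelihood F tests, 1 mean per group over all 12 libraries, two-sided, Benjamini-Hochberg adjustment over the 12064 genes tested, threshold 0.05). The typical biological coefficient of variation was 6.99%. "Rose", "fell", "higher" and "lower" denote this threshold. The script was tested on simulated counts. Alternatives were other scalings, filters, a replicate block, fits of 2 groups, DESeq2 1.42.0 and leaving out each library, and, chosen after seeing the data, adding the counts of Psme2 and Psme2b. Transcript lengths (the median over protein-coding transcripts of a gene) came from GENCODE for GRCm38, and gene positions from RefSeq of that build. Motifs were chosen after the members' values were seen.

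Named genes were, per comparison, the 3 core and 3 cap genes called with the largest change each way, all Psme, Psmf1 and Psmg genes, Psmb5, Psmb6, Psmb7, Psmd14 and fixed partners, with other members given mostly by level. Exceptions, named after their values were seen, are Psma8, Psmb11, Psmd1, Psmd8 and the members listed beside a count. Members and lists were chosen with earlier results of these data known. P-values measure the spread between samples described as biological replicates, floors cover counting error only, and reads carried no molecular identifiers. One list of partner genes is not reported here.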

Additional observations from a re-analysis of the deposited data

Results flagged for a closer look

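The LPS effect differed between the genotype labels by the interaction test for 15 members, each with a larger log2 fold change in KO than in WT. The interaction was 0.69 for Psme2, 0.59 for Psmd1, 0.50 for Psmd12, 0.48 for Psmd14, 0.45 for Psme1, 0.38 for each of Psma6, Psmc2 and Psmc6, 0.37 for Psmd5, 0.36 for each of Psmd3 and Psmd11, 0.30 for Psmc1, 0.28 for Psmd7, 0.27 for Psmc5 and 0.26 for Psmd4. Psmd5 differs from the other 14 in that it fell with LPS in both genotypes, by less in KO. The Psmd5, Psmd7, Psmd4 and Psmd3 calls were among those lost most often when 1 library was left out.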

How the results depend on the processing

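The processing choice with the widest effect was the scaling of the libraries, and its cause was not tested. With the upper quartile, 9 members (19.1%) were called lower with LPS in each genotype, against 54.0% of all genes in WT and 54.4% in KO. In KO with LPS 9 were then higher and 4 lower, and 8 passed in the interaction. Psmb5 had a log2 fold change with LPS of -0.0242 in WT and -0.0483 in KO, and Psmf1 of -0.10 in KO. In WT and KO the values were -0.20 and -0.26 for Psmd8, -0.23 and -0.25 for Psmg3 and -0.11 and -0.22 for Psmd9, with -0.15 for Psmg4 in WT and, in KO, -0.18 for Psma1 and -0.063 for Psmc1. The summed level changed with LPS, on the log2 scale, by 0.68 and 0.83 for the core, 0.0111 and 0.19 for the cap and 1.45 and 1.86 for the activators in WT and KO. With totals alone, 15 members were higher and 24 lower (51.1%) with LPS in WT and 16 and 20 (42.6%) in KO. Of all genes 68.4% and 69.5% were lower there. The counts were 0 and 1 in KO with PBS, 8 and 6 in KO with LPS, and 4 and 1 in the interaction. LPS values then turned negative for Psme3 (-0.33 in WT, -0.31 in KO), Psmb5 (-0.38, -0.49), Psmf1 (-0.27, -0.55), Sem1 (-0.24, -0.35), Nfe2l1 (-0.0739, -0.00432), Psmd14 and Adrm1 in WT (-0.18, -0.11), Psmd1, Psma1, Psmc1 and Psmc3ip in KO (-0.28, -0.63, -0.51, -0.0257), Psmd8 (-0.55, -0.70), Psmg3 (-0.58, -0.70), Psmd9 (-0.46, -0.67) and Psmg4 in WT (-0.50). Summed levels changed by 0.32 and 0.39 for the core, -0.34 and -0.25 for the cap and 1.10 and 1.42 for the activators. With RLE scaling the cap sum in WT changed by 0.37, and Psma1 and Psmc1 in WT, just below 0 with TMM, stood at 0.0298 and 0.0386 (0.0299 and 0.0387 by DESeq2). Leaving out each library put them between -0.0672 and 0.04998 and between -0.0396 and 0.054.

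A fit of the 2 groups alone called 14 members lower in KO with PBS (29.8%, against 19.6% of all genes) and 10 higher in KO with LPS (21.3%, against 16.5%). DESeq2 called 2 lower with LPS in WT. Neither filter on low counts moved a count of members by over 1.5 times. Leaving out each library gave 34 to 37 higher and 2 to 4 lower with LPS in WT, 37 to 39 and 3 to 4 in KO, 0 to 12 lower in KO with PBS, 11 to 21 higher and 2 to 5 lower in KO with LPS, and 6 to 16 in the interaction. A group left with 2 libraries shared the spread of the others. Deviations of samples with the same replicate number correlated between -0.30 and 0.30. Between LPS and PBS 5 of 6 samples correlated best with their own number, a hint from the data and not the design, but in neither genotype were all 3 correlations above 0.1 (0.25, 0.27 and -0.03 in WT, 0.06, 0.17 and 0.14 in KO). The numbers were not taken as pairs. With the replicate block 18 members had an interaction (38.3%, against 9.70% of all genes), with Psma3, Psmb6 and Psme4 added, and 8 were lower in KO with PBS. Counts near the floor limit Psma8, Psmb11 and Psmc3ip.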
